A study of Mus musculus with 6 samples.

Results

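Cyclic nucleotide phosphodiesterases end the cyclic AMP signal that adenylyl cyclases start, by hydrolysing cyclic AMP to AMP. In brown adipocytes noradrenaline raises cyclic AMP, which activates protein kinase A and through it lipolysis and heat production, and insulin opposes this in part by activating the phosphodiesterase PDE3B. The genes described here are 10 phosphodiesterases that degrade cyclic AMP (Pde2a, Pde3a, Pde3b, Pde4a, Pde4b, Pde4d, Pde7a, Pde8a, Pde8b and Pde10a), chosen by symbol from a table of 54385 genes. All 10 were found by their GENCODE identifiers and all 10 passed the filter on low counts.

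Polyadenylated RNA was sequenced from the interscapular brown fat of C57BL/6N mice, in 6 libraries; the mice had been fed chow for 20 weeks and were held at 5 °C for the last 24 hours. The 3 Adcy3 Ad-cKO libraries came from mice with floxed Adcy3 alleles (Adcy3-FL/FL) and the Adipoq Cre driver (Adipoq-wt/cre), and the 3 WT libraries from mice with the same floxed alleles and no Cre (Adipoq-wt/wt). Adcy3 encodes adenylyl cyclase 3, which makes cyclic AMP. The Adipoq promoter drives Cre in adipocytes, brown and white, so other cell types of the depot keep the enzyme. All mice were cold-exposed. The comparison asks whether the transcripts of cyclic AMP-degrading enzymes differ in cold brown fat of mice in which this driver targets the cyclase.

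The libraries held 13956786 to 17538044 estimated counts. Levels are in counts per 1000000 of scaled library size (CPM). Adcy3 stood at 21.9, 30.3 and 24.1 CPM in Ad-cKO libraries 1 to 3, against 135, 169 and 158 CPM in WT libraries 1 to 3. These are values of the entry ENSMUSG00000020654 alone. The source of the Adcy3 counts that remained in Ad-cKO libraries was not tested. The 8 adipocyte markers summed to between 14517 and 17690 CPM in Ad-cKO libraries and between 13567 and 14345 CPM in WT libraries. Their sums were separate between the groups, with 8 of 8 positive, 0 at an unadjusted p under 0.05 and 0 called by edgeR. The 8 brown adipocyte markers summed to between 9936 and 10984 CPM in Ad-cKO libraries and between 7871 and 8760 CPM in WT libraries, separate between the groups, with 8 of 8 positive, 3 of them at an unadjusted p under 0.05, and 0 called by edgeR. Among them Ucp1, the uncoupling protein of brown fat, was at 7161, 7111 and 7592 CPM in Ad-cKO libraries 1 to 3, against 5398, 6008 and 5850 CPM in WT libraries 1 to 3. Ucp1 made up most of the brown adipocyte sum in every library. Dio2, Ppargc1a, Prdm16 and Cox8b overlapped between the groups. The other 4, with Ucp1, had all Ad-cKO libraries above all WT libraries (background 7.63%). Of all genes tested, 7633 of 14767 were positive, and 2.87% were higher at an unadjusted p under 0.05. The part of these marker differences in the results was not tested. Skeletal muscle RNA varied: 20 muscle markers made up 0.959%, 0.0702% and 0.0066% of counts in Ad-cKO libraries 1 to 3, and 2.29%, 2.05% and 1.73% in WT libraries 1 to 3. On the first principal component, with 58.3% of the variance, Ad-cKO library 1 lay at -20.7, near the WT libraries (-43.8 to -34.8). Ad-cKO libraries 2 and 3 lay at 54.0 and 80.9. Ad-cKO library 1 also stood apart from the other 5 on the second principal component, which held 16.5% of the variance.

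No phosphodiesterase passed the test between genotypes. A gene is called here when its edgeR quasi-likelihood p, adjusted by Benjamini-Hochberg over all 14767 genes tested, is under 0.05. Of the 10, 0 were called higher and 0 lower, where the background was 0.0271% of tested genes higher and 0.0339% lower. DESeq2 (background 0.21% higher, 1.87% lower), limma-voom (0.0406% higher, 0.183% lower) and edgeR with a replicate block (0.0135% each way) also called 0 members. With DESeq2 Pde7a and Pde4b lay just above the threshold (DESeq2 adjusted p = 0.0549 and 0.0693). At an unadjusted p under 0.05, 2 of the 10 were lower (background 7.6%) and 0 were higher (background 2.87%). Those 2, Pde7a and Pde4b, were also the members whose Ad-cKO libraries all lay below all WT libraries (background 10.8%); no member had them all above (background 7.63%). The median log2 fold change over the 10 was 0.04, with 6 positive and 4 negative, beside a median of 0.01 over all genes tested. In a bulk sample, fewer cells of a type and less RNA per cell cannot be told apart.

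**Figure D1:**
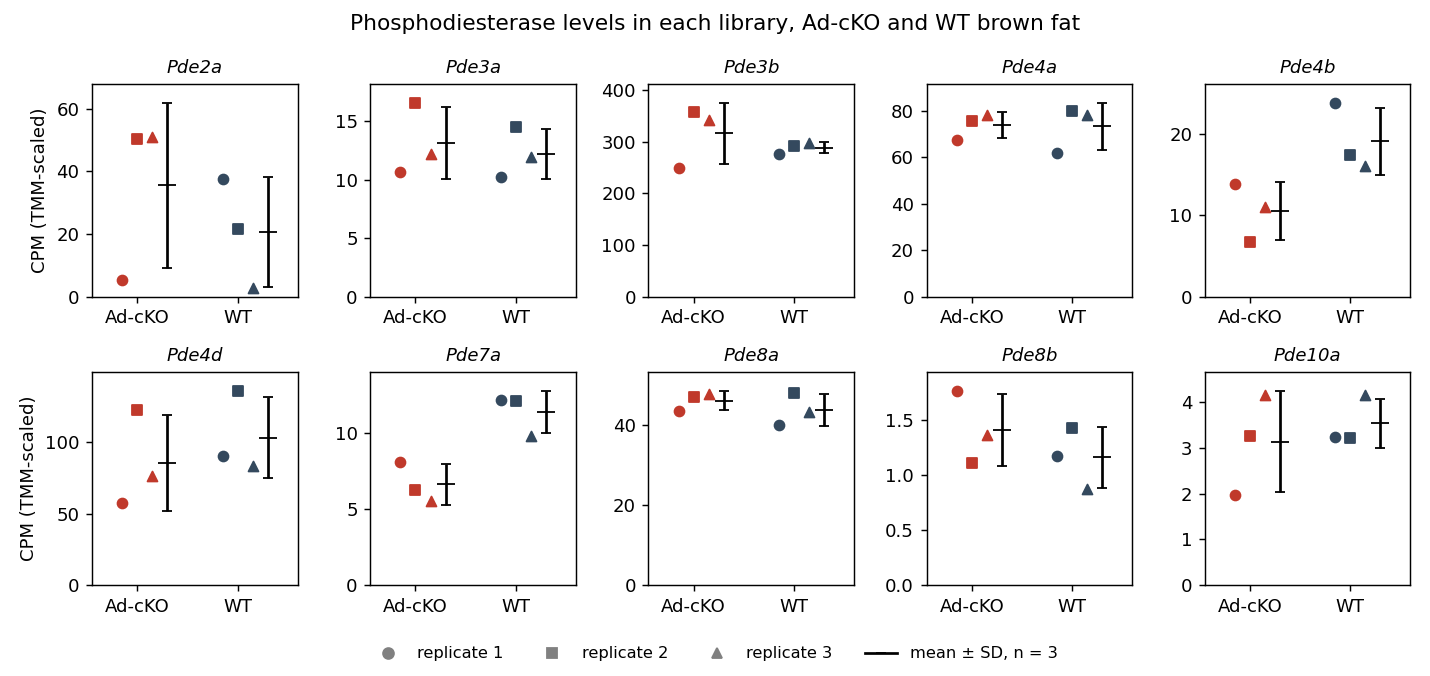
Level of each of the 10 phosphodiesterases in CPM (vertical axis, from 0) in the 3 Ad-cKO and 3 WT libraries, with marker shapes for replicate numbers and bars for mean ± SD (n = 3). The groups are separate for Pde4b and Pde7a and overlap for the other 8, and Pde2a spreads from 2.82 to 51.1 CPM.

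Pde3b was the most abundant member per length. To compare genes, CPM were divided by the kilobases of each gene's longest protein-coding transcript. In WT libraries Pde3b averaged 43.9 ± 1.71 CPM per kilobase and Pde4d, a cyclic AMP-specific enzyme that protein kinase A activates, 24.5 ± 6.71 (SD, n = 3). Pde4a, of the same subfamily, followed at 15.7 ± 2.17 CPM per kilobase, and Pde8a, a high-affinity cyclic AMP enzyme, at 11.5 ± 1.04 (SD, n = 3). Pde2a, counted with an overlapping entry as described further on, had 11.1 ± 2.67 CPM per kilobase, and its range overlapped that of Pde8a. Lower and with ranges apart from each other came Pde4b (4.45 ± 0.96), Pde7a (1.81 ± 0.22), Pde3a (0.99 ± 0.18), Pde10a (0.45 ± 0.07) and Pde8b (0.27 ± 0.07 CPM per kilobase; SD, n = 3 WT libraries). With merged exons as the length Pde3b stayed highest at 31.6 CPM per kilobase, while the order of the next ones changed to Pde8a (10.8), Pde4a (9.57) and Pde4d (8.58). The WT ranges of Pde8a, Pde4a and Pde4d then overlapped one another. That of Pde2a with its overlapping entry (7.63) overlapped those of Pde4a and Pde4d. Which isoforms were present is not known from counts per gene, so that part of the order rests on the length chosen. With merged exons Pde4b (1.81) also overlapped Pde7a (1.47 CPM per kilobase) in WT libraries. Pde3b made up 40.3%, 42.3% and 44.4% of the summed per-kilobase level of the 10 in Ad-cKO libraries 1 to 3, against 39.9%, 35.5% and 39.6% in WT libraries 1 to 3. With this length all Ad-cKO shares lay above all WT shares. With merged exons as the length the shares overlapped between the groups, and no test of this was made.

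The PDE3 enzymes are inhibited by cyclic GMP. Pde3b (ENSMUSG00000030671, GRCm38 chromosome 7, 114415281 to 114539251, plus strand) encodes the form that insulin activates in adipocytes to restrain lipolysis. It stood at 248, 358 and 341 CPM in Ad-cKO libraries 1 to 3, against 276, 291 and 298 CPM in WT libraries 1 to 3. Ad-cKO library 1 was below every WT library and the other 2 above every one, so the groups overlap. The edgeR log2 fold change was 0.13 ± 0.16 (SE), with a 95% interval of -0.24 to 0.50 (adjusted p = 0.832). Pde3a (ENSMUSG00000041741, chromosome 6, 141249269 to 141507448, plus strand) encodes the form known from heart, platelets and vascular smooth muscle. It was at 10.6, 16.6 and 12.2 CPM in Ad-cKO libraries and 10.2, 14.5 and 11.9 CPM in WT libraries. Library 2 was the highest of both groups, and the log2 fold change of 0.10 had an interval of -0.38 to 0.59 (edgeR adjusted p = 0.909).

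Abhd15, Akt2 and Rapgef3 encode proteins that act with PDE3B: a lipase-like protein that binds and stabilises it in adipocytes, the kinase through which insulin activates it, and the cyclic AMP sensor EPAC1. Akt2 had 478, 420 and 414 CPM in Ad-cKO libraries 1 to 3, against 352, 410 and 404 CPM in WT libraries 1 to 3. All Ad-cKO libraries lay above all WT libraries, but the difference did not pass (log2 fold change 0.17 ± 0.13, SE; edgeR adjusted p = 0.694). Abhd15 averaged 34.0 ± 11.5 CPM in Ad-cKO and 33.6 ± 6.32 CPM in WT libraries, and Rapgef3 22.1 ± 5.10 CPM in Ad-cKO and 24.2 ± 6.74 CPM in WT libraries (SD, n = 3 each). Both overlapped between the groups.

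The PDE4 enzymes are specific for cyclic AMP and are the targets of rolipram. Pde4b (ENSMUSG00000028525, chromosome 4, 102087543 to 102607259, plus strand), known for its role in inflammatory cells and for transcription that cyclic AMP itself induces, was at 13.9, 6.78 and 11.05 CPM in Ad-cKO libraries 1 to 3, against 23.9, 17.5 and 16.1 CPM in WT libraries 1 to 3. All Ad-cKO libraries were below all WT libraries. The log2 fold change was -0.86 ± 0.27 (SE), with an interval of -1.48 to -0.23, an unadjusted p of 0.0134 and an edgeR adjusted p of 0.321. Pde4b ranked 615th by p among the genes tested. Pde4d (ENSMUSG00000021699, chromosome 13, 108449948 to 109953461, plus strand) was at 57.3, 122 and 76.1 CPM in Ad-cKO libraries, against 90.3, 135 and 83.5 CPM in WT libraries. Library 2 was high in both groups and the groups overlap (log2 fold change -0.27, interval -0.95 to 0.41, edgeR adjusted p = 0.808). Pde4a (ENSMUSG00000032177, chromosome 9, 21165714 to 21213248, plus strand) was close to equal, at 67.6, 75.5 and 78.3 CPM in Ad-cKO libraries and 61.7, 80.0 and 78.2 CPM in WT libraries. Its log2 fold change of 0.01 had an interval of -0.31 to 0.33 (edgeR adjusted p = 0.987).

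Because Pde4b is a gene that cyclic AMP is known to induce, its promoter is shown. RefSeq (GRCm38.p6) gives it 4 start sites, and windows of 300 bases (250 before to 50 after a start site) were searched for the cyclic AMP response element TGACGTCA and for its core TGACG on both strands; each full element also holds the core. The window at chr4:102421305-102421604 holds 1 core, 34 bases before the start site and on the reverse strand, shown in capitals:
Pde4b: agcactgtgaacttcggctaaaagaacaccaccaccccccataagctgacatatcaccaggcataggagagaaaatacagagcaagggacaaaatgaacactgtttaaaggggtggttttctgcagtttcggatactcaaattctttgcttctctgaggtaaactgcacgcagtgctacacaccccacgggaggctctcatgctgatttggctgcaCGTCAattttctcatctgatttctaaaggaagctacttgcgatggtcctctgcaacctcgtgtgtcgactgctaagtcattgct
For comparison, these are the stretches around the core in windows of Pde4a (chr9:21184036-21184070, plus strand) and Pde8a (chr7:81213166-81213200, plus strand), members that lay near a log2 fold change of 0:
Pde4a: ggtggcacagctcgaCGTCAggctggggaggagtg
Pde8a: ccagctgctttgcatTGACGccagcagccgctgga
RefSeq windows were matched for 7 of the 10 members. Pde3a, Pde3b and Pde7a had none, so their promoters were not searched. Of the 21 windows of those 7 members, 5 held the core, beside 20.8% of all 32851 windows. These were 1 window each of Pde2a, Pde4a, Pde4b, Pde8a and Pde8b. The full element was in 0 of the 21, beside 1.79% of all windows. A match is a description of the letters and not a binding site, and which start sites were used cannot be read from counts per gene.

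PDE7 and PDE8 are cyclic AMP-specific enzymes that rolipram does not inhibit. Pde7a (ENSMUSG00000069094, chromosome 3, 19223108 to 19311322, minus strand), known from T cells and skeletal muscle, was at 8.12, 6.26 and 5.52 CPM in Ad-cKO libraries 1 to 3, against 12.2, 12.1 and 9.79 CPM in WT libraries 1 to 3. All Ad-cKO libraries were below all WT libraries. Pde7a had the smallest p of the 10, with a log2 fold change of -0.78 ± 0.20 (SE), an interval of -1.23 to -0.33, an unadjusted p of 0.00416 and an edgeR adjusted p of 0.226. It ranked 269th by p. Pde8a (ENSMUSG00000025584, chromosome 7, 81213596 to 81334533, plus strand) was the least variable member, with its highest library at 1.20 times its lowest. It had 43.5, 46.9 and 47.9 CPM in Ad-cKO libraries and 40.1, 47.9 and 43.4 CPM in WT libraries (log2 fold change 0.07, interval -0.20 to 0.34; edgeR adjusted p = 0.880). Pde8b (ENSMUSG00000021684, chromosome 13, 95024454 to 95250336, minus strand), known from endocrine glands, rested on 26, 17 and 23 estimated counts in Ad-cKO libraries and 20, 25 and 13 in WT libraries. At that depth its interval of -0.54 to 1.09 around a log2 fold change of 0.27 spans a doubling (edgeR adjusted p = 0.844).

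**Figure D2:**
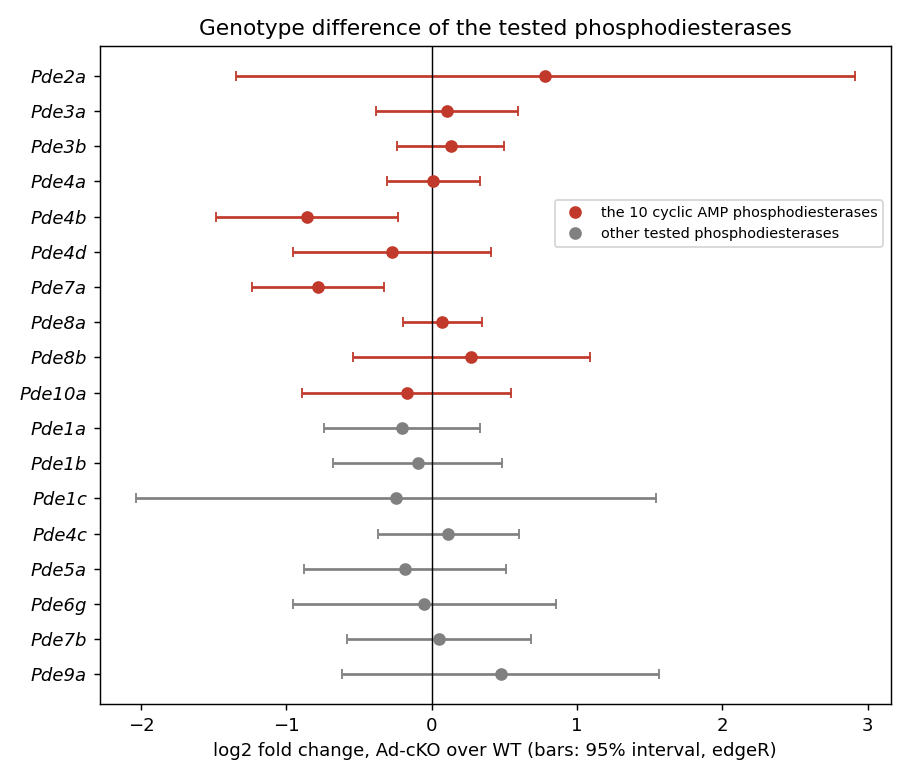
Log2 fold change of Ad-cKO over WT (horizontal axis) with 95% intervals from edgeR for the 10 members (red) and the 8 other tested phosphodiesterases (grey). The intervals of Pde4b and Pde7a lie below 0, those of the other 16 genes include 0, and Pde2a has the widest interval of the 10 members.

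The RNA of other cell types also differed between the libraries. The order of the 6 libraries by Pde7a level, from Ad-cKO 3 to WT 1, was the same as their order by muscle marker share. For Pde4b the order differed among the Ad-cKO libraries, where library 2, with a muscle share of 0.0702%, had the lowest level. Macrophage markers summed to between 49.8 and 95.9 CPM in Ad-cKO libraries and between 67.9 and 121 CPM in WT libraries. Of these markers 7 of 8 were negative, 3 of them at an unadjusted p under 0.05. Fibroblast markers summed to between 298 and 496 CPM in Ad-cKO libraries and between 525 and 786 CPM in WT libraries, separate between the groups. For fibroblasts 8 of 8 were negative, 7 of them at an unadjusted p under 0.05 (background 7.6%), and 0 were called. Of all genes tested, 7134 of 14767 were negative. Lymphocyte markers, of which 2 of 8 were tested, summed to under 5 CPM in every library (1.49 to 4.16 CPM in Ad-cKO, 3.69 to 4.81 CPM in WT). No list had a defining marker at 0 in all libraries, and the part of these cell types in the results was not tested. The muscle share and the fibroblast sum each separated the genotypes without overlap, so neither can be told apart from genotype in these libraries. Adding the share of muscle markers to the model turned the direction of both genes, to 0.35 ± 0.52 for Pde4b (SE, edgeR adjusted p = 0.779) and 0.09 ± 0.40 for Pde7a (SE, edgeR adjusted p = 0.926). That model called 0% of tested genes lower and 0.0203% higher, and did not call the targeted Adcy3 itself (log2 fold change -3.15 ± 0.38, SE, edgeR adjusted p = 0.0985). Without Ad-cKO library 1 both were called lower, at -1.10 for Pde4b (edgeR adjusted p = 0.0272) and -0.95 for Pde7a (edgeR adjusted p = 0.0120), in a fit that called 5.35% of tested genes lower and 0.296% higher. Leaving out any other single library called 0 members, with backgrounds of 0.00656%, 0.0132%, 0.00665%, 0.0066% and 0.0132% lower and 0.0197%, 0.0198%, 0.0199%, 0.0198% and 0.0199% higher (without Ad-cKO 2, Ad-cKO 3, WT 1, WT 2 and WT 3 in turn). Without a filter on low counts both were also called lower (edgeR adjusted p = 0.00146 for Pde4b and 0.0281 for Pde7a; background 2.45%).

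**Figure D3:**
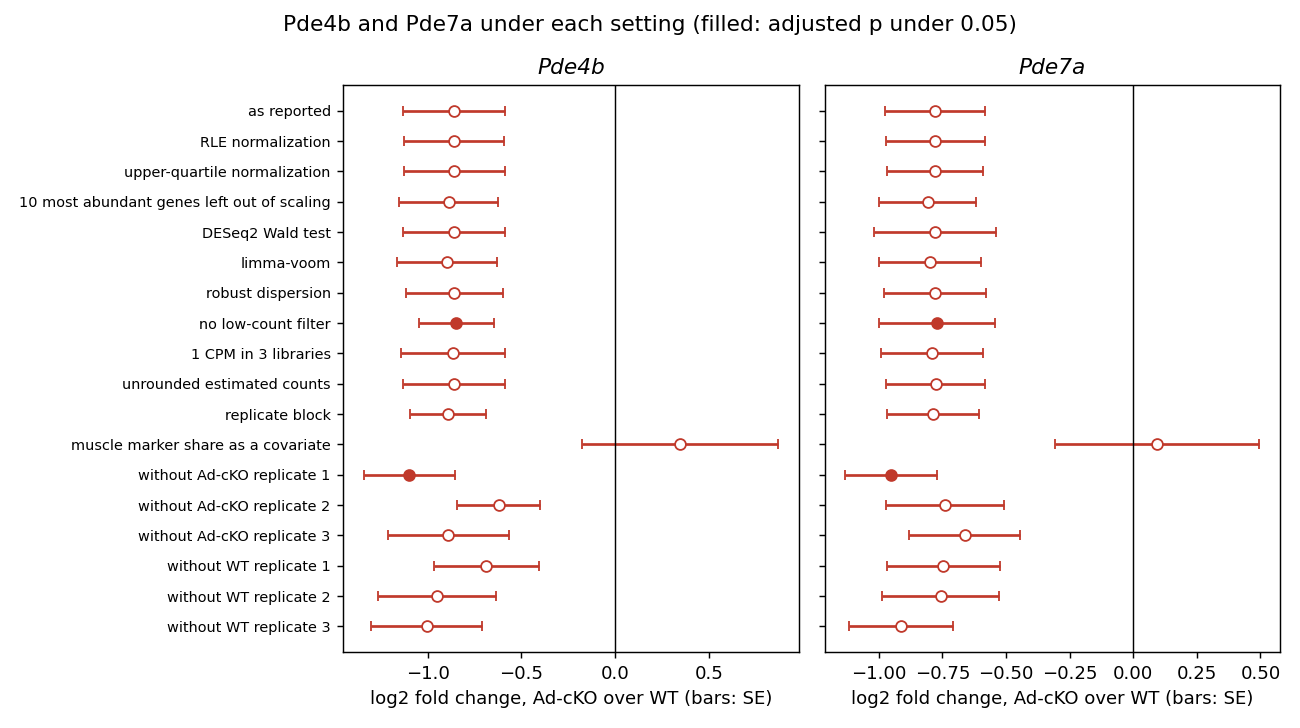
Log2 fold change of Ad-cKO over WT (horizontal axis, bars for SE) of Pde4b and Pde7a as reported and under 17 other settings, with filled points where the adjusted p was under 0.05. Every setting but the muscle covariate gave a negative value for both genes, and the points are filled without a low-count filter and without Ad-cKO replicate 1.

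The remaining members, Pde2a and Pde10a, hydrolyse both cyclic AMP and cyclic GMP. Pde10a (ENSMUSG00000023868, chromosome 17, 8525372 to 8986648, plus strand), best known from the striatum of the brain, was low, at 1.96, 3.26 and 4.16 CPM in Ad-cKO libraries and 3.24, 3.21 and 4.16 CPM in WT libraries (log2 fold change -0.17, interval -0.89 to 0.55; edgeR adjusted p = 0.896). Pde2a (ENSMUSG00000110195, chromosome 7, 101421691 to 101512827, plus strand), which cyclic GMP stimulates, varied most. It stood at 5.21, 50.3 and 51.1 CPM in Ad-cKO libraries 1 to 3, against 37.6, 21.5 and 2.82 CPM in WT libraries 1 to 3, an 18.1-fold range with low libraries in both groups. The log2 fold change was 0.78 with an interval of -1.35 to 2.91 (edgeR adjusted p = 0.826). Without a filter on low counts the same libraries gave a call of higher (log2 fold change 0.79, edgeR adjusted p = 0.000602), in a fit that called 0.348% of genes higher.

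The spread of Pde2a has a counterpart in an overlapping entry of the table. Gm45837 (ENSMUSG00000030653, chromosome 7, 101410886 to 101512819, plus strand) is annotated in GENCODE as a read-through transcript whose first exon lies within the neighbouring gene Arap1 and which then runs through the exons of Pde2a. Of its distinct stretches of 31 bases, 95.6% are also in a Pde2a transcript, and 63.8% of those of Pde2a are in another gene. For the other 9 members the share in another gene was between 0% and 0.92%. The coding bases on both sides of the first exon junction show how the entries differ, with the shared second exon (chr7:101451402-101451468) in capitals and the last 30 bases of each first exon in lower case:
Gm45837: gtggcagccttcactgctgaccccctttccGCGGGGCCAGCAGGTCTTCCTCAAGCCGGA
Pde2a: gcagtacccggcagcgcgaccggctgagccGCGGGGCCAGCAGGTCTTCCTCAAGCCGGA
Gm45837 stood at 38.5, 0 and 0 CPM in Ad-cKO libraries 1 to 3, against 0, 22.3 and 56.6 CPM in WT libraries 1 to 3, high where Pde2a was low. The sum of both entries was 43.7, 50.3 and 51.1 CPM in Ad-cKO libraries 1 to 3, and 37.6, 43.8 and 59.4 CPM in WT libraries 1 to 3. The groups overlap, at 48.4 ± 4.03 CPM in Ad-cKO and 46.9 ± 11.2 CPM in WT libraries (SD, n = 3 each). Tested as 1 entry, a comparison added after the values were seen, the sum had a log2 fold change of 0.04 ± 0.18 (SE, edgeR adjusted p = 0.961). Reads of the shared exons were divided between the entries by estimation, so the level of each alone is uncertain, and the sum is the value that can be compared between libraries.

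**Figure D4:**
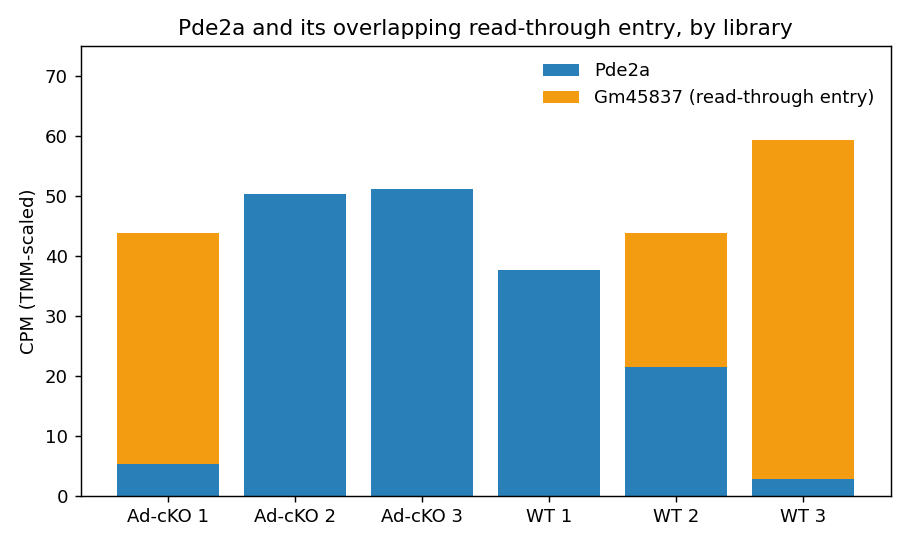
Level in CPM (vertical axis, from 0) of Pde2a (blue) and the read-through entry Gm45837 (orange), stacked, in each of the 6 libraries. The split between the entries differs from 0% to 95.3% Gm45837, while the stacked heights lie between 37.6 and 59.4 CPM.

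Whether a pair of related genes differed in its response was asked with ratios, which do not depend on library size. The log2 ratio of Pde3a to Pde3b was -4.59 ± 0.19 in Ad-cKO and -4.57 ± 0.22 in WT libraries (n = 3 each, SD; two-sided exact permutation test, p = 0.9). That of Pde4b to Pde4d was -2.998 ± 1.08 in Ad-cKO and -2.41 ± 0.52 in WT libraries (n = 3 each, SD; two-sided exact permutation test, p = 0.6). That of Pde8a to Pde8b was 5.02 ± 0.39 in Ad-cKO and 5.23 ± 0.31 in WT libraries (n = 3 each, SD; two-sided exact permutation test, p = 0.6). All 3 adjusted values were 0.9, and 3 libraries against 3 cannot give a p below 0.1.

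The other cyclic nucleotide phosphodiesterases, which include enzymes for cyclic GMP, numbered 13. Of these 12 had at least 1 count, 8 were tested and 0 were called, 3 with positive and 5 with negative log2 fold changes (median -0.07). None had separate groups and none had an unadjusted p under 0.05. The most abundant was Pde7b, the close relative of Pde7a, at 23.9, 44.6 and 51.5 CPM in Ad-cKO libraries 1 to 3, against 35.7, 47.0 and 33.4 CPM in WT libraries 1 to 3. Its log2 fold change was 0.05 with an interval of -0.58 to 0.68, and Ad-cKO library 1 was the lowest of all 6. Pde4c (0.11) and Pde9a (0.47) also had positive log2 fold changes, and the calmodulin-dependent Pde1a (-0.20), Pde1b (-0.10) and Pde1c (-0.25), Pde5a (-0.19) and Pde6g (-0.05) negative ones.

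Among 20 partners and regulators of these enzymes 0 were called, with 8 positive and 12 negative log2 fold changes. At an unadjusted p under 0.05 were 2 of 20, both lower, close to the background of 7.6%: Pde4dip and Akap6. Pde4dip encodes myomegalin, which binds PDE4D, and Akap6 encodes an anchoring protein of heart and skeletal muscle that holds protein kinase A and PDE4D together. Pde4dip was at 134, 55.9 and 35.4 CPM in Ad-cKO libraries 1 to 3, against 456, 433 and 333 CPM in WT libraries 1 to 3 (log2 fold change -2.44 ± 0.45, SE; edgeR adjusted p = 0.129). Akap6 was at 4.74, 1.11 and 0.653 CPM in Ad-cKO libraries, against 11.6, 10.6 and 8.58 CPM in WT libraries (log2 fold change -2.26 ± 0.60, SE; edgeR adjusted p = 0.251). The groups are separate for both, and both followed the order of muscle marker share across all 6 libraries. With that share, which is confounded with genotype, as a covariate Pde4dip was at -0.07 (edgeR adjusted p = 0.951) and Akap6 at 0.87 (edgeR adjusted p = 0.575). Of 18 other fits, the covariate fit among them, 4 called Pde4dip lower and 3 called Akap6 lower. With the replicate block, for example, neither was called (edgeR adjusted p = 0.0856 for Pde4dip and 0.157 for Akap6). Without Ad-cKO library 1 both were called (edgeR adjusted p = 2.59e-05 for Pde4dip and 5.36e-05 for Akap6; background 5.35%), as they were by DESeq2 (adjusted p = 0.00269 and 0.00126; background 1.87%) and without a low-count filter (edgeR adjusted p = 7.6e-39 and 9.6e-14; background 2.45%). With limma-voom Pde4dip was called (adjusted p = 0.0484; background 0.183%) and Akap6 was not (adjusted p = 0.0767). The next smallest p belonged to Pik3r6 and Pik3cg, regulatory and catalytic subunits of the phosphoinositide 3-kinase that binds PDE3B, at -0.48 and -0.85 (edgeR adjusted p = 0.523 and 0.610).

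**Figure D5:**
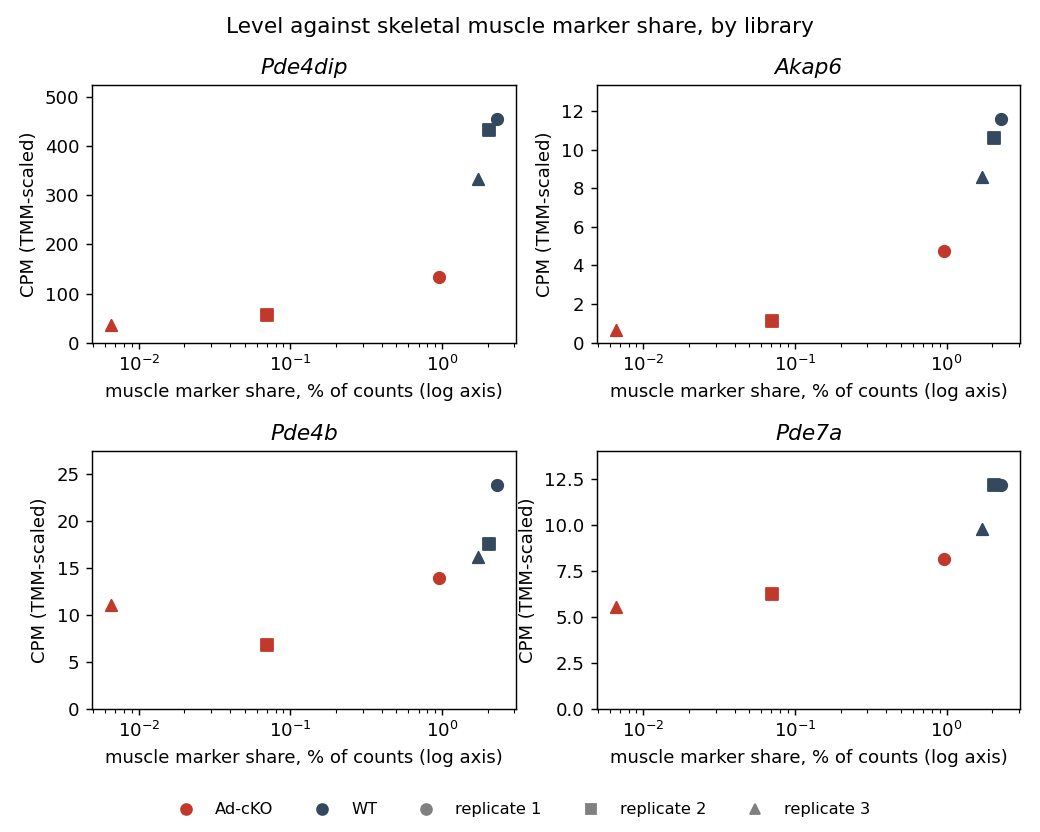
Level in CPM (vertical axes, from 0) of Pde4dip, Akap6, Pde4b and Pde7a against the share of counts from 20 skeletal muscle markers (horizontal log axis, percent) in each library. Pde4dip, Akap6 and Pde7a rank the 6 libraries as the muscle share does, and Pde4b does not.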

How the data were processed

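The authors deposited estimated counts, many of them not whole, for each gene and with no normalization. Tools named in the submitters' processing notes are StringTie, Salmon and edgeR, with the build GRCm38. Their versions, the annotation release and whether strand was used were not given in the sources used here. Models on the opposite strand overlap the spans of Pde3a, Pde4d, Pde7a, Pde8a, Pde8b and Pde10a. Whether their exons overlap was not checked. Without strand, reads of any exon bases they share could not be told apart. The design text of the series gives the depot as inguinal and the replication as quadruplicate, and gives 20 weeks as the age where the labels give 20 weeks on chow; depot, feeding and groups follow the sample labels. Columns were matched to samples by their descriptions, and symbols, positions and lengths came from GENCODE vM21.

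Estimated counts were rounded, filtered with filterByExpr (minimum count 10, total 15) and fitted on the whole table with edgeR 4.0.16 (R 4.3.3; quasi-likelihood, TMM, two-sided, genotype only). SE is the absolute log2 fold change over the root of F. A floor of 3 counts is 0.172 to 0.203 CPM per library. Alternatives used DESeq2 1.42.0, limma 3.58.1 and other settings. The scripts were tested on simulated data. No label says that replicates were separate animals, so the p-values reflect the spread among these libraries, which may be technical in part. Libraries within a group differed by 12.0 to 68.8 times the counting noise (chi-square per degree of freedom), so none were copies.

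The 10 members, the lists and the tests were chosen with earlier results of these data known. Genes named were all members, all other tested phosphodiesterases, Adcy3, Abhd15, Akt2, Rapgef3, the 4 partners with the smallest p and the 3 genes most like Pde3b. Gm45837, Ppargc1a, Dio2 and the other brown adipocyte markers named singly were named after values were seen. The summed entry and the merged-exon lengths were also added after values were seen.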

Additional observations from a re-analysis of the deposited data

How the results depend on the processing

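The members called lower numbered 0 as reported and 0 to 2 with 1 library left out (2 without Ad-cKO replicate 1), and 2 without a low-count filter, where 1 was called higher. Over all genes 4 were called higher and 5 lower as reported, 31 and 276 with DESeq2, 6 and 27 with limma-voom, 7 and 39 with robust dispersion, 111 and 782 without a filter, 3 and 0 with the muscle covariate, and 3 to 45 and 1 to 812 with 1 library left out. The replicate block gave 2 higher and 2 lower and called 0 members; same-numbered libraries deviated together only weakly (r = 0.0739, 0.107 and 0.0531), though each correlated best with its own number.

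Directions turned without passing in several fits. With the muscle covariate, which is confounded with genotype, the log2 fold changes were -2.35 for Pde2a, -0.61 for Pde3a, -0.65 for Pde3b, -0.46 for Pde4a, 0.35 for Pde4b, 0.095 for Pde7a, -0.17 for Pde8a, -0.60 for Pde4c, 0.69 for Pde6g, -1.40 for Pde7b, -0.74 for Pde9a, -1.65 for Abhd15 and 0.87 for Akap6. Pde4a was at -0.0079 with the 10 most abundant genes left out of scaling and -0.0013 with a filter of 1 CPM. Pde7b and Abhd15 were at -0.0063 and -0.019 with limma-voom and at -0.0070 and -0.025 with the replicate block. With 1 library left out Pde3a ranged from -0.10 to 0.23, Pde4a from -0.11 to 0.071, Pde10a from -0.43 to 0.075, Pde1b from -0.25 to 0.0067, Pde1c from -0.63 to 0.48, Pde4c from -0.067 to 0.23, Pde5a from -0.34 to 0.041, Pde6g from -0.36 to 0.16, Pde7b from -0.17 to 0.31, Abhd15 from -0.21 to 0.27 and Rapgef3 from -0.32 to 0.063. The difference in log2 ratio (Ad-cKO minus WT) ranged from -0.11 to 0.10 for Pde3a over Pde3b, from -1.06 to 0.0024 for Pde4b over Pde4d and from -0.38 to 0.0058 for Pde8a over Pde8b. The cause was not tested. Depth limits Pde8b and Pde10a, with 13 to 26 and 29 to 70 counts per library.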

Other observations

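Pde4d was highest in library 2 of both groups, at 122 CPM in Ad-cKO and 135 CPM in WT. Ppargc1a, a coactivator of mitochondrial genes that cyclic AMP induces, was also highest there, at 101 CPM in Ad-cKO library 2 and 94.8 CPM in WT library 2, beside 42.0 and 67.9 CPM in Ad-cKO libraries 1 and 3 and 43.5 and 36.7 CPM in WT libraries 1 and 3. Dio2, which activates thyroid hormone, was at 114, 170 and 170 CPM in Ad-cKO libraries 1 to 3 and between 95.6 and 177 CPM in WT libraries, with WT library 2 the highest. Prdm16 was likewise highest in library 2 of both groups. Ucp1, Cidea, Elovl3, Cox7a1 and Cox8b were highest in WT library 2 among WT libraries. Among Ad-cKO libraries the same genes were lowest in library 2. Pde4b was lowest of all libraries in Ad-cKO library 2, at 6.78 CPM, so library 2 had no common direction. Ppargc1a and Dio2 were picked after their values were seen, and no test was made.

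The tested genes whose log2 CPM correlated most with Pde3b over the 6 libraries were Dennd5b, Gbp5 and Cwc22 (Pearson r = 0.99 each). With 6 libraries and 14767 genes this is a description only. Like Pde3b, all 3 were lowest in Ad-cKO library 1, a likeness favoured by picking them for that correlation.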
